A study of Drosophila melanogaster with 3 samples.

Results

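The mitochondrial ribosomal protein genes are the 73 genes of the fly annotation whose symbol begins with mRpL (47 genes, named for the large subunit) or mRpS (26 genes, named for the small subunit). The symbols are historical and do not fix the place of a protein, since in mammals the S30 protein and one of the S18 proteins are found in the large subunit. They were taken by symbol alone from 13945 protein-coding genes on chromosome arms 2L, 2R, 3L, 3R, 4 and X, so no gene was taken or left out by its peaks. The family itself was chosen with earlier results of these data known. The peaks come from chromatin immunoprecipitation followed by sequencing (ChIP-seq) of the nuclear receptor Hr51 in whole Drosophila melanogaster embryos of mixed sex, collected from 0 to 24 h of development. All 3 samples are biological replicates of 1 transgenic line, Dhr51-GFP, that carries Hr51 with GFP at its C-terminal end, so there is no second genotype, age or treatment to compare. The labels give the antibody as anti-GFP in one field and as Hr51 in another, no control library is among the samples, and the control experiment that they name as possible was not analysed here. Whole embryos hold many cell types, and a peak cannot be assigned to any of them. The depth of the samples is unknown, because the peak lists hold no read counts.

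Mitochondria carry their own ribosomes, which translate the few proteins encoded in mitochondrial DNA, all of them parts of the respiratory chain and the ATP synthase. The ribosomal RNAs come from mitochondrial DNA, whereas every protein of these ribosomes is encoded in the nucleus, made in the cytosol and imported. Some of the proteins have a counterpart in bacterial ribosomes and others are found only in mitochondria. Hr51 (unfulfilled) is the fly member of the NR2E3 group of nuclear receptors and is best known from mushroom body neurons, where it acts in axon growth and identity.

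Promoter peaks in the list that passed the irreproducible discovery rate filter, called the IDR list here, lay at 26 of the 73 mitochondrial ribosomal protein genes (35.6%), against 2669 of all 13945 protein-coding genes (19.1%). A promoter peak is one with its summit at most 500 bp, in either direction, from any start of transcription (TSS) in the annotation, and the IDR list holds 3496 peaks. Among the 3496 peaks of highest signal in each replicate's own list, 26, 26 and 22 of the genes had a promoter peak in replicates 1, 2 and 3, or 35.6%, 35.6% and 30.1%. The same shares over all protein-coding genes were 19.3%, 18.7% and 18.3%. The replicates averaged 24.7 ± 2.31 of the 73 genes (SD, n = 3 replicates). In each of the replicates the share of mitochondrial ribosomal protein genes was therefore above that of all genes, and the 3 replicates differed among themselves by at most 4 genes. These are descriptions of 1 group of samples and were not put to a test, since genes are not replicates.

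In the relaxed lists of 30000 peaks, which the authors deposited as peaks and background, 60 of the 73 genes (82.2%) had a promoter peak in the pooled list, against 54.2% of all protein-coding genes. The whole lists of replicates 1, 2 and 3 held promoter peaks at 60, 61 and 60 of the genes, a mean of 60.3 ± 0.577 (SD, n = 3 replicates). Over all protein-coding genes the whole lists gave 54.4% in replicate 1, 50.8% in replicate 2 and 52.6% in replicate 3. A promoter peak in the highest 3496 of all 3 replicates was found at 15 of the 73 genes (20.5%), against 12.1% of all protein-coding genes. A further 9 genes were in the top lists of 2 replicates, 11 in that of 1 replicate and 38 in none. The shares over all protein-coding genes are not given for these last counts, so they are not shown to be particular to this family.

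mRpL41 and mRpS10 have 2 of the highest peaks of the list, and the counts were repeated without them. Over the other 71 genes, 24 had an IDR promoter peak (33.8%), 58 had a pooled promoter peak (81.7%), and 13 were in the top lists of all 3 replicates (18.3%). The top lists then held 24, 24 and 20 of these genes, a mean of 22.7 ± 2.31 (SD, n = 3 replicates). Each share stayed above that of all protein-coding genes. The plot of shares by peak list shows the same order in all 8 lists.

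**Figure D1:**
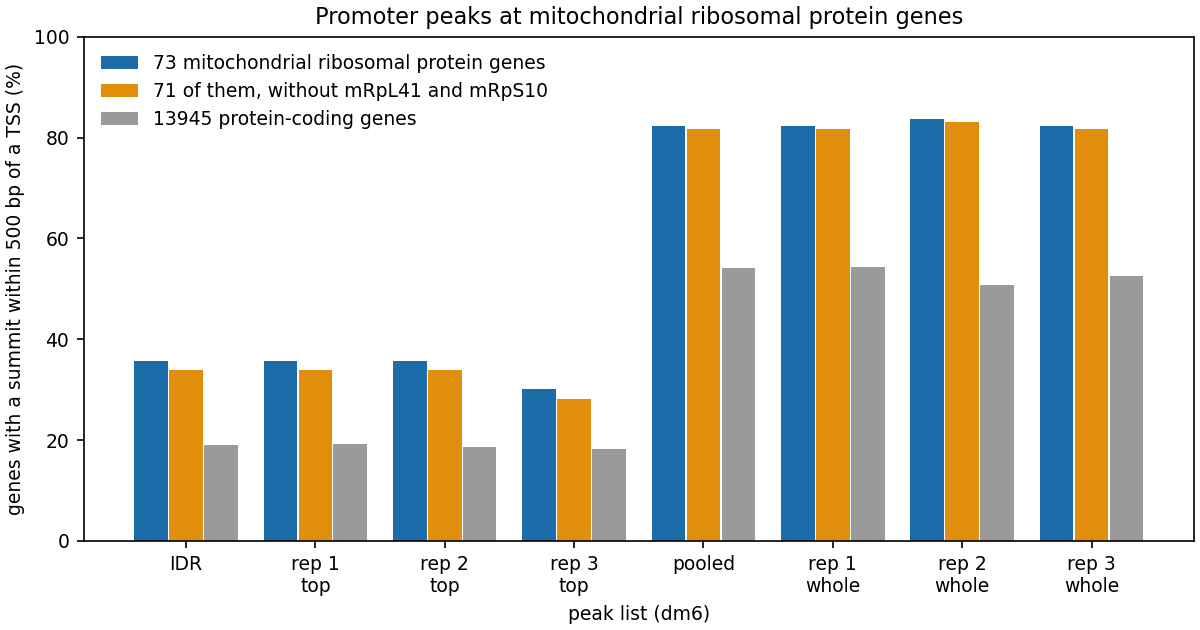
Percent of genes with a peak summit within 500 bp of a TSS (vertical axis) in the IDR list, the top 3496 peaks of each replicate, the pooled list and each replicate's whole list (horizontal axis), with blue bars for the 73 mitochondrial ribosomal protein genes, orange bars for the 71 without mRpL41 and mRpS10, and grey bars for all 13945 protein-coding genes. The blue bar is at 35.6% in the IDR list against 19.1% for the grey bar, and at 82.2% against 54.2% in the pooled list.

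The 26 genes used 26 different IDR peaks, and none had more than 1. Their signal, a value of the authors' peak caller used here only to rank peaks within a list, ran from 933 for mRpL41 to 78.7 for mRpS24. The median was 123 for these 26 genes and 129 for all 2669 genes with an IDR promoter peak. By rank the median gene stood at 46.8% of the way down the list, against 43% for all genes with an IDR promoter peak, and at 48.7% without mRpL41 and mRpS10. Mitochondrial ribosomal protein genes with a peak were thus spread over the whole range of signal. Of the 26 peaks, 15 were in the upper 1748 of the list (57.7%, against 57.3% of all genes with an IDR promoter peak) and 11 in the lower 1748. The highest 100 held 4 of the 26 (15.4%, against 3.78%), and 5 ranked below 3000 (19.2%, against 12.2%). Both mRpL41 and mRpS10 are among those 4, so the share in the highest 100 depends in part on them. It was not taken without them.

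At 3 of the 4 highest peaks, those of mRpL41, mRpS23 and mRpS10, the rank was nearly the same in every replicate. At mRpL41, whose protein belongs to the large subunit and has no bacterial counterpart, the peak (dm6, chr2R:15217576-15217945) ranked 14 of 3496, with a signal of 933. It ranked 14, 13 and 14 in replicates 1, 2 and 3, where its signal was 328, 368 and 245. Its summit lay 147 bp upstream of the TSS of mRpL41, and the next protein-coding TSS, of CG8079, was 615 bp from the summit. mRpL41 was the exception among the 26 in having no other coding TSS within 500 bp of the summit.

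At mRpS23, a gene for a small-subunit protein with no bacterial counterpart, the peak (chr2L:13835292-13835635) ranked 15 with a signal of 916. It ranked 12, 17 and 16 in replicates 1, 2 and 3, with signals of 341, 339 and 239. The summit was 399 bp upstream of mRpS23 but 93 bp from the TSS of its neighbour CenG1A, which encodes a GTPase-activating protein for Arf GTPases. At mRpS10, whose protein is the counterpart of bacterial S10, the peak (chr3R:15229332-15229727) ranked 19 with a signal of 851. It ranked 19, 18 and 27 in the replicates, with signals of 297, 334 and 213. Its summit stood almost midway between the 2 genes, 125 bp upstream of mRpS10 and 132 bp from Art3, an arginine methyltransferase gene. At mRpL23, the counterpart of a bacterial protein at the exit of the peptide tunnel, the peak (chr3L:2373430-2373767) ranked 49 with a signal of 601. It ranked 27, 95 and 58 in the replicates, with signals of 258, 162 and 173. This summit was inside the gene, 61 bp downstream of the nearest of its 3 annotated TSSs and 111 bp from the TSS of CG9004.

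The next 8 genes by signal ranked between 349 and 1487 in the IDR list and were in the top lists of all 3 replicates. mRpL34 had a signal of 261 and ranked 349, with ranks of 630, 163 and 553 in replicates 1, 2 and 3. mRpS2, the counterpart of bacterial S2, had a signal of 235 and ranked 450, with ranks of 570, 683 and 260. mRpL24, the counterpart of another tunnel-exit protein, had a signal of 216 and ranked 549, with ranks of 673, 1464 and 359. These 3 peaks lay 170, 207 and 164 bp upstream of their genes, and replicate 2 gave the highest of the 3 ranks at mRpL34 and the lowest at mRpS2 and mRpL24. mRpL47, the counterpart of bacterial L29, had a signal of 194 and ranked 676, with ranks of 877, 446 and 1029 and its summit 77 bp upstream. mRpL11, the counterpart of a protein at the base of the bacterial ribosomal stalk, had a signal of 187 and ranked 732, with ranks of 657, 726 and 958 and its summit 213 bp upstream. mRpL21 had a signal of 154 and ranked 1057, with ranks of 799, 1310 and 2347 and its summit 196 bp upstream. The peaks at these 3 genes stood lowest in replicate 3. mRpL18 had a signal of 134 and ranked 1399, with ranks of 1543, 966 and 2948, and its summit was 165 bp upstream. mRpL53 had a signal of 130 and ranked 1487, with ranks of 1751, 2063 and 1725, and its summit was 76 bp upstream. CG33155 has a TSS at the same distance from that summit as mRpL53, so the peak cannot be given to either.

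The other 14 genes had signals from 125 down to 78.7. In order they were mRpL37 (rank 1577), mRpS6 (1693), mRpS21 (1709), mRpL20 (2025), mRpL42 (2430), mRpL54 (2444), mRpL35 (2470), mRpS26 (2473), mRpL33 (2742), mRpL16 (3038), mRpL36 (3043), mRpL51 (3126), mRpS7 (3370) and mRpS24 (3400). Their signals in the IDR list were 125 for mRpL37, 120 for mRpS6 and for mRpS21, 108 for mRpL20, 97.4 for mRpL42, 97.2 for mRpL54, 96.7 for mRpL35 and 96.6 for mRpS26. The signals were 90.5 for mRpL33, 85 for mRpL16 and for mRpL36, 83.5 for mRpL51, 79.4 for mRpS7 and 78.7 for mRpS24, close to the lowest signal of the IDR list, 77.3. At several of these peaks the replicates were far apart. mRpS21 ranked 6558 in replicate 1, 1792 in replicate 2 and 987 in replicate 3. Replicate 1 also had a higher promoter peak there, of rank 4303, with its summit more than 150 bp from that of the IDR peak. mRpL35 ranked 1487, 1674 and 9706 in replicates 1, 2 and 3, and mRpL51 ranked 2429, 3072 and 10045. mRpL33 ranked 2079 and 2281 in replicates 1 and 2 and had no summit within 150 bp in the whole list of replicate 3.

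Counted over all 26 genes, the same summit was found within 150 bp in the top lists of 3 replicates for 14 genes, of 2 replicates for 8, of 1 replicate for 3 and of none for mRpS24. The share found in all 3, 53.8%, was near that of all 2064 IDR peaks at coding promoters, 55.2%. In the whole lists 25 of the 26 summits were found in all 3 replicates. The plot of ranks by replicate shows that the spread between replicates differed from gene to gene all along the list, being narrow at mRpS26 (ranks 2587, 2262 and 2419) and mRpS24 (4309, 4499 and 4828) near its foot. These are ranks of the peak within 150 bp of the IDR summit. At mRpS24 replicate 3 also had a higher promoter peak, of rank 2587, with its summit farther away than that. Within the top lists, the genes present stood at a median of 46.6%, 44.9% and 30.4% of the way down in replicates 1, 2 and 3, against 42.9%, 42.8% and 42.8% for all genes present.

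**Figure D2:**
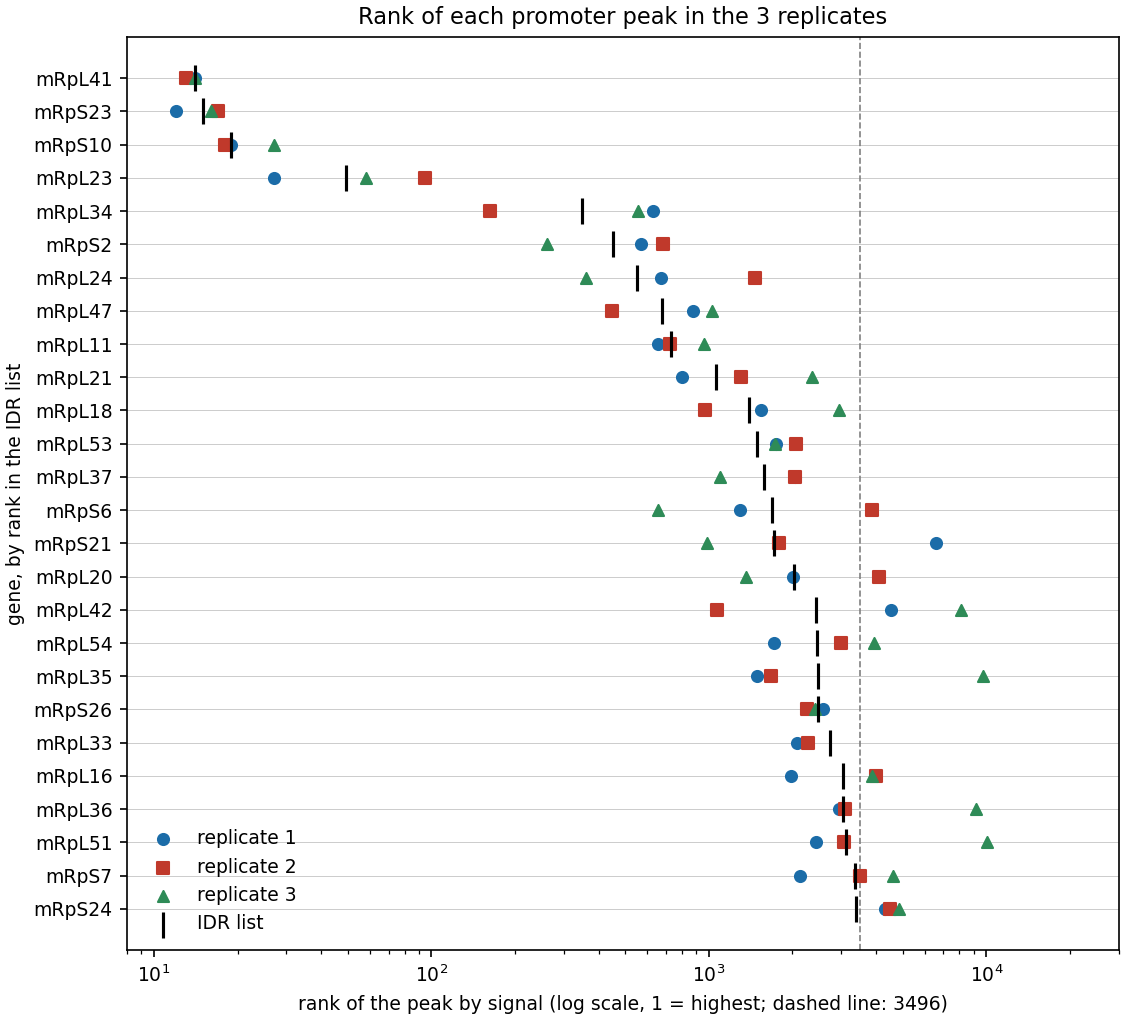
Rank by signal (horizontal axis, log scale, 1 is the highest) of the IDR promoter peak of each of the 26 genes (vertical axis), with black ticks for the IDR list, blue circles for replicate 1, red squares for replicate 2, green triangles for replicate 3, and a dashed line at rank 3496. mRpL41, mRpS23 and mRpS10 lie between ranks 12 and 27 in every replicate, whereas mRpL51 reaches rank 10045 in replicate 3 and mRpL33 has no mark for that replicate.

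More of these genes than of all genes stood head to head with a neighbour in the annotation. A promoter was called divergent when a protein-coding TSS on the other strand lay at most 500 bp upstream, with the 2 genes transcribed away from each other, and one-strand otherwise. In the annotation, 53 of the 73 mitochondrial ribosomal protein genes (72.6%) had a divergent promoter, against 27.4% of all protein-coding genes. Without mRpL41 and mRpS10 it was 52 of 71 (73.2%). The distance between the paired TSSs ran from 20 bp at mRpL18 to 499 bp at mRpL22, with a median of 264 bp, against 244 bp for all divergent genes. None of the partners was itself a mitochondrial ribosomal protein gene, so no promoter was counted for 2 of them. A single annotated TSS was given for 67 of the 73 genes (91.8%), against 73.5% of all protein-coding genes.

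IDR promoter peaks lay at 24 of the 53 genes with a divergent promoter (45.3%), against 39.7% of all 3815 divergent genes. Among the genes with a one-strand promoter, 2 of 20 had one (10%), mRpL41 and mRpL36, against 11.4% of all 10130 one-strand genes. The mRpL36 summit lay 379 bp downstream of the mRpL36 TSS, farther than from the TSS of CG7550, at 222 bp. Without mRpL41 and mRpS10 the counts were 23 of 52 (44.2%) and 1 of 19 (5.26%). Among divergent promoters the share of mitochondrial ribosomal protein genes was therefore near that of all divergent genes, unlike the share over both types. Among one-strand promoters it rests on 2 genes, or 1 without mRpL41 and mRpS10, too few to say how near it is. If each type had the share of all protein-coding genes, 23.3 of the 73 genes would have had an IDR promoter peak, and 26 had one. In the pooled list, promoter peaks lay at 47 of the 53 divergent genes (88.7%), against 80.6% of all divergent genes, and at 13 of the 20 one-strand genes (65%), against 44.3% of all one-strand genes. The plot by promoter type shows the IDR counts.

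**Figure D3:**
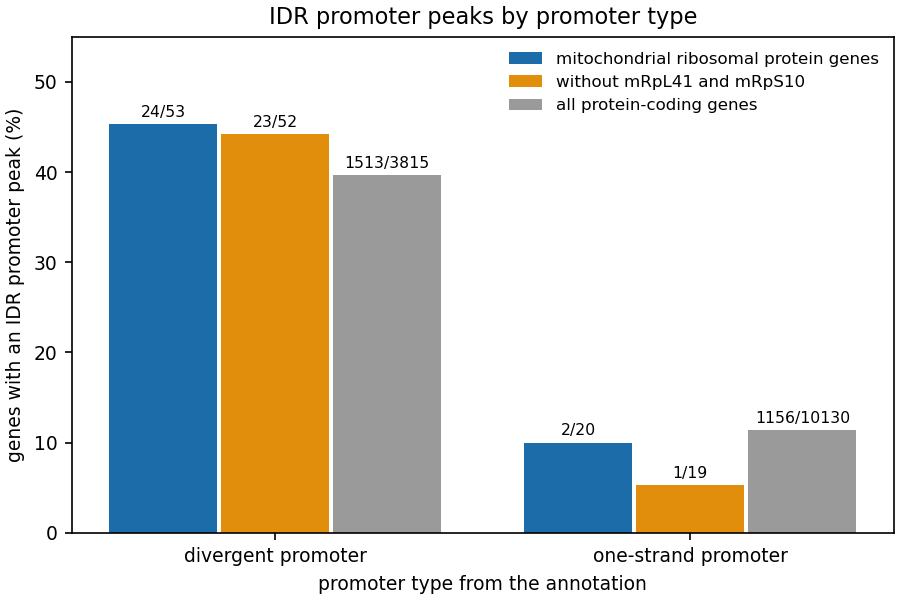
Percent of genes with an IDR promoter peak (vertical axis) among divergent and one-strand promoters (horizontal axis), with blue bars for all mitochondrial ribosomal protein genes, orange bars for those without mRpL41 and mRpS10, grey bars for all protein-coding genes, and the counts above each bar. The bars for divergent promoters lie close together, at 45.3%, 44.2% and 39.7%, and far above those for one-strand promoters, at 10%, 5.26% and 11.4%. The bars at 10% and 5.26% rest on 2 genes and 1 gene.

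By the distance between the paired TSSs, 4 of the 18 divergent genes with at most 100 bp had an IDR promoter peak, against 34.4% of all such genes. Above that and up to 300 bp it was 11 of 15, against 42.2%, and from there up to 500 bp it was 9 of 20, against 39.6%. These groups are small, and the distance classes were chosen with the peak counts already known.

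A summit at a divergent promoter lies near both genes, and in these data it cannot be assigned to one of them. At all 24 divergent genes with an IDR peak, the TSS of the partner was also within 500 bp of the summit, and the TSS of the mitochondrial ribosomal protein gene was the nearest coding TSS at 9 of the 24. The summit lay between the paired TSSs at 18 of the 24 promoters. It lay beyond the partner's TSS at mRpL18, mRpL11 and mRpL35, and downstream of the paired TSS of the mitochondrial ribosomal protein gene at mRpL23, mRpL51 and mRpL42. These placings were not counted over all divergent genes with an IDR peak, so they are not shown to be particular to these promoters. Over all 26 genes, the summit was upstream of the nearest own TSS at 23 (88.5%), against 86.2% of all genes with an IDR promoter peak. The median distance between summit and TSS was 175 bp for the 26 genes and 119 bp for all genes with an IDR promoter peak. The map of 23 of these promoters places most summits between the paired starts.

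**Figure D4:**
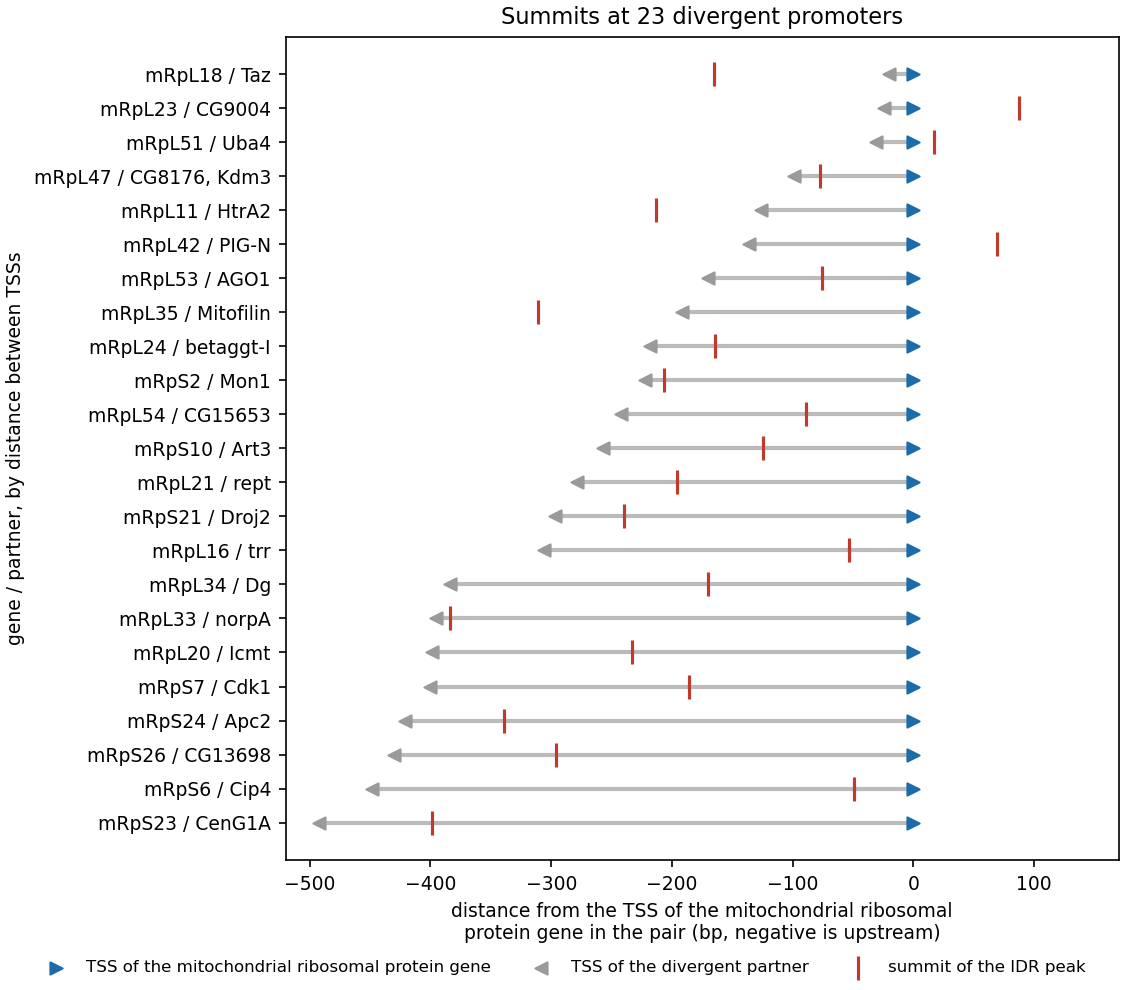
Map of 23 divergent promoters with an IDR peak, 1 row per gene and partner, ordered by the distance between their TSSs, with the distance from the TSS of the mitochondrial ribosomal protein gene in bp on the horizontal axis (blue arrowhead at 0, grey arrowhead for the partner's TSS, red line for the summit). The red line falls between the arrowheads in 17 rows and outside them in 6, at mRpL18, mRpL23, mRpL51, mRpL11, mRpL42 and mRpL35.

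Some partners act in mitochondria as well, but the functions of partners were not counted over all divergent genes. The mRpL35 partner is Mitofilin, which shapes the folds of the inner membrane, the mRpL11 partner is HtrA2, a mitochondrial serine protease, and the mRpL18 partner is Taz, the tafazzin gene, which acts in remodelling of the mitochondrial lipid cardiolipin. Among the genes without an IDR peak, mRpL55 and mRpL32 also have such partners, ATPsynD and qless. Genes of chromatin and RNA control were the partners at mRpL21 (rept, an AAA+ ATPase of chromatin complexes), mRpL16 (trr, a histone methyltransferase), mRpL53 (AGO1, an Argonaute of the microRNA pathway) and mRpL47 (Kdm3, a histone demethylase, with CG8176). Partners of cell division and signalling were Cdk1, the mitotic kinase, at mRpS7, Apc2, a component of Wnt signalling, at mRpS24, and norpA, the phospholipase C of phototransduction, at mRpL33. Partners of membrane traffic and lipid modification of proteins were Mon1, which acts in endosome maturation, at mRpS2, betaggt-I, a subunit of a protein prenyl transferase, at mRpL24, Icmt, which methylates prenylated proteins, at mRpL20, PIG-N, an enzyme of glycolipid anchors, at mRpL42, and Cip4, a membrane-bending protein, at mRpS6. Further partners were Dg, the dystroglycan gene, at mRpL34, CenG1A at mRpS23, Art3 at mRpS10, the DnaJ-like chaperone gene Droj2 at mRpS21, the sulphur-transfer enzyme gene Uba4 at mRpL51, CG9004 at mRpL23, CG15653 at mRpL54 and CG13698 at mRpS26.

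The intervals between the paired TSSs are printed for 6 of these promoters, because they hold the stretch that 2 genes share and, in 4 of them, the summit itself. They are the 6 of highest signal on arms 2L, 3L, 3R and X with at most 300 bases between the starts, which leaves out mRpS23, and were read from Release 6 of the genome (RefSeq) on the strand of the mitochondrial ribosomal protein gene, 5′ to 3′, from the base after the partner's TSS to the base before its own. No base of them is in an annotated exon. Capitals mark matches to the motifs described further on, and positions count from 1 at the 5′ end.
mRpS10 and Art3, chr3R:15229409-15229664, plus strand: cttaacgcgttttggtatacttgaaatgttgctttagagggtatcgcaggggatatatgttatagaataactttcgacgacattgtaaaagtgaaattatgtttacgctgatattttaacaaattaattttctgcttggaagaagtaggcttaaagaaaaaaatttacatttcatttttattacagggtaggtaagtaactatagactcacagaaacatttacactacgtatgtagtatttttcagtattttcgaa
mRpL23 and CG9004, chr3L:2373705-2373727, minus strand: gtttaaaacaagtgttggacaac
mRpS2 and Mon1, chr2L:4850420-4850640, minus strand: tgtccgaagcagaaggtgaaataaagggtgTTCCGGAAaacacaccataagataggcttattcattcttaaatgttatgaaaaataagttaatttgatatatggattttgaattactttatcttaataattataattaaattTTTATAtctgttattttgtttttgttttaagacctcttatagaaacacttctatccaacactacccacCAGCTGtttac
mRpL24 and betaggt-I, chr2L:4945362-4945578, minus strand: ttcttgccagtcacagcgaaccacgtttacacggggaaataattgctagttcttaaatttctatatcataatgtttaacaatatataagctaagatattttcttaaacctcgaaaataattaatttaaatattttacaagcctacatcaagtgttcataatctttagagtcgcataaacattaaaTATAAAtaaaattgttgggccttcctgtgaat
mRpL47 and CG8176, chr3R:9515909-9516006, minus strand: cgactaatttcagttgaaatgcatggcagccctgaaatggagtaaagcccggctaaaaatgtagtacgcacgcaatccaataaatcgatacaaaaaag
mRpL11 and HtrA2, chr3R:14511713-14511837, plus strand: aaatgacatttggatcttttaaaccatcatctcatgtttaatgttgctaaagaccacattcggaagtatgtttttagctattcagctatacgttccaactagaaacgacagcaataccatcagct
The summit is at base 132 of the 256 bases at mRpS10, at base 15 of 221 at mRpS2, at base 54 of 217 at mRpL24 and at base 22 of 98 at mRpL47. At mRpL23, with 23 bases between the starts, and at mRpL11, with 125, it lies outside the interval. All 6 intervals have less G and C than A and T, from 28.1% G and C at mRpS2 to 40.8% at mRpL47. The mRpS10 interval, under one of the highest peaks, holds no match to any of the 9 motifs searched, and neither do those of mRpL23, mRpL47 and mRpL11. At mRpL23 and mRpL11 a CAGCTG, one of these motifs, is cut by an end of the interval.

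One sequence feature, not used to choose the genes, was more frequent in the promoters of mitochondrial ribosomal protein genes than in all promoters. This held with or without a peak. The motif CAGCTG, an E-box of the kind bound by basic helix-loop-helix proteins and the same on both strands, was present from 250 bp before to 50 bp after the 5′-most TSS in 40 of the 73 promoters (54.8%), against 17.7% of all protein-coding promoters in windows of the same length. It was within 50 bp of the TSS in 35 of the 73 (47.9%), against 9.3% of all promoters. Of the 45 matches in these promoters, 36 were within 50 bp of the TSS. In the 50 bp from the TSS onward, 30.1% of the promoters held a match, against 4.33% of all promoters, and in the 50 bp before it 17.8%, against 5.26%. The plot of E-box positions shows this placing at the start site. Of the divergent genes 29 of 53 held it (54.7%, against 25.1% of all divergent promoters), and of the one-strand genes 11 of 20 (55%, against 14.9%). It was in 27 of the 47 promoters of mRpL genes and in 13 of the 26 of mRpS genes. Without mRpL41 and mRpS10 it was 39 of 71 (54.9%). The positions within the window were examined after the counts had been seen.

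**Figure D5:**
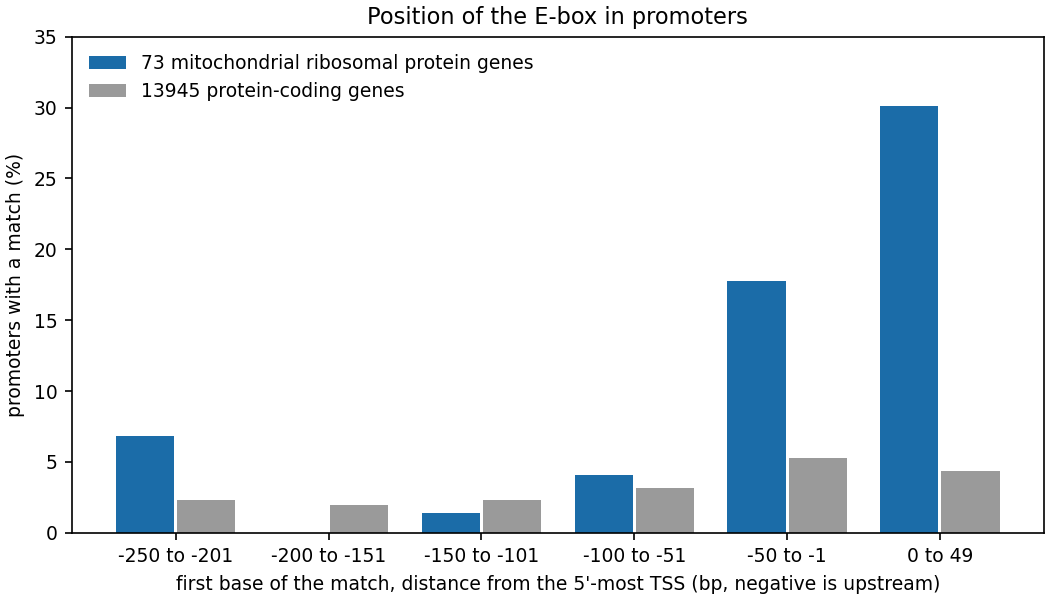
Percent of promoters with a CAGCTG match (vertical axis) by the distance of its first base from the 5′-most TSS in steps of 50 bp (horizontal axis, negative is upstream), with blue bars for the 73 mitochondrial ribosomal protein genes and grey bars for all 13945 protein-coding genes. The blue bars are highest on either side of the TSS, at 17.8% and 30.1%, against 5.26% and 4.33% for the grey bars.

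The E-box is shown in its surroundings for 8 genes with an IDR peak, those of highest signal with an E-box among the genes on arms 2L, 3L, 3R and X, to let the bases beside it be compared. Each stretch is 26 bases of Release 6 (RefSeq), 5′ to 3′ on the strand of the gene, with the E-box in capitals, and the choice of these stretches was made after the matches had been seen.
mRpL23, chr3L:2373717-2373742, minus strand: ggttgacaatCAGCTGtttaaaacaa
mRpS2, chr2L:4850415-4850440, minus strand: cactacccacCAGCTGtttaccaaaa
mRpL24, chr2L:4945326-4945351, minus strand: cagttctcaaCAGCTGattgcaagcc
mRpL47, chr3R:9515875-9515900, minus strand: gttattgcttCAGCTGttttgttcgg
mRpL11, chr3R:14511823-14511848, plus strand: gcaataccatCAGCTGttgctgcttc
mRpL21, chr3L:19255069-19255094, minus strand: catgctaacaCAGCTGttcgaaaacg
mRpS6, chr3L:4364554-4364579, plus strand: ttccttgcatCAGCTGttaacactat
mRpS21, chr3R:13381792-13381817, minus strand: tgatattcatCAGCTGtttagcagta
The first base of the E-box is 28, 11, 5 and 23 bp before the 5′-most TSS at mRpL23, mRpS2, mRpL11 and mRpL21. It is 20, 18, 14 and 2 bp after it at mRpL24, mRpL47, mRpS6 and mRpS21.

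At the genes with both, the E-box was mostly more than 50 bp from the summit of the Hr51 peak. The IDR peaks have a median width of 420 bp, so an E-box away from the summit can still lie inside the peak. E-boxes were not counted over whole peaks. Among the 26 genes with an IDR peak, 17 promoters held the E-box (65.4%), against 23.8% of all genes with an IDR peak, and among the 47 without one, 23 did (48.9%), against 16.2%. Distances were taken only to E-boxes in the promoter window, from 250 bp before to 50 bp after the 5′-most TSS. At mRpL35, mRpL33 and mRpS24 the summit lay outside it, 311, 384 and 339 bp upstream, so nearer E-boxes could be missed. Within that limit, and without the same value over all genes, the median distance to the closest E-box was 140 bp over those 17 genes. The only match within 50 bp of the summit was at mRpS2, at 35.5 bp. That match at mRpS2 is not the printed one. Its first base is at -245 bp from the mRpS2 TSS, beyond the TSS of Mon1. In windows of 101 bp centred on the summit, chosen after the counts above had been seen, CAGCTG was present at 1 of the 26 summits (3.85%), against 7.51% of all IDR peaks at coding promoters.

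Motifs bound by nuclear receptors were in no larger share of these promoters than of all promoters. AAGTCA, the core bound by receptors of the NR2E group, was in 9 of the 73 promoters on either strand (12.3%), against 16.2% of all promoters, and in the summit windows it was at 1 of 26, mRpL54, against 5.14% of all. The related AGGTCA was in 1 promoter, mRpL14 (1.37%), against 5.88%. A match to these letters is not a bound site, and a window without them may still be bound.

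Of the motifs of other promoter factors, TATCGATA, which is bound by DREF and BEAF-32, was in 15 of the 73 promoters (20.5%), against 9.36% of all. It was in 7 of the 20 one-strand promoters (35%, against 6.32%) and in 8 of the 53 divergent ones (15.1%, against 17.4%). Of the 26 genes with an IDR peak 3 held it (11.5%, against 16.2% of all genes with an IDR peak), and of the 47 without one 12 did (25.5%, against 7.73%). GGTCACACT, the core bound by M1BP, was in 8 promoters (11%, against 6.05%), and CACGTG, another E-box, in 5 (6.85%, against 4.2%). CCGGAA, the Ets core, was in 3 (4.11%, against 6.78%), GAGAGAG, bound by GAGA factor, in 1, mRpL43 (1.37%, against 5.87%), and TATAAA in 34 (46.6%, against 45.8%). In the printed mRpS2 interval the Ets core is met on both strands in overlapping letters, and the capitals near its middle are TATAAA on the other strand. The median content of G and C was 34.7% in the 73 promoters and 38% in all promoters, which bears on how often letters match by composition alone and was not corrected for.

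Split by symbol, 18 of the 47 mRpL genes (38.3%) and 8 of the 26 mRpS genes (30.8%) had an IDR promoter peak, against 19.1% of all protein-coding genes. In the top lists of replicates 1, 2 and 3 the mRpL counts were 19, 20 and 13 and the mRpS counts 7, 6 and 9, so the order of the 2 shares turned round in replicate 3. All protein-coding genes gave 19.3%, 18.7% and 18.3% in these lists. Genes with a number in the range of the bacterial names (L1 to L36 and S1 to S21) had an IDR promoter peak in 16 of 42 cases (38.1%), and those with a higher number in 10 of 31 (32.3%). The higher numbers include proteins with a bacterial counterpart of another name, such as mRpL47 and mRpS24, the counterpart of bacterial S3. In the pooled list the counts were 37 of 42 (88.1%) and 23 of 31 (74.2%), against 54.2% of all protein-coding genes. The 3 paralogs mRpS18A, mRpS18B and mRpS18C all had divergent promoters and no IDR peak, and 2 of them had a pooled peak. By chromosome arm, IDR promoter peaks lay at 6 of 12 genes on 2R (against 18.7% of all protein-coding genes there), 5 of 12 on 2L (18.2%), 7 of 21 on 3R (20.8%), 6 of 17 on 3L (20.4%) and 2 of 11 on X (17.1%).

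A pooled promoter peak without an IDR peak was found at 34 of the 73 genes, ranked from 3521 to 29964 in the pooled list with a median rank of 6674. Of all 13945 protein-coding genes, 7556 had a pooled promoter peak, among them the 2669 with an IDR promoter peak. Among the 73 genes, the highest ranks of this kind were as follows. The highest was at mRpL32, with a signal of 76.8, rank 3521 and a summit 171 bp upstream, just under the lowest signal of the IDR list. It ranked 3331, 4183 and 5102 in replicates 1, 2 and 3. mRpL44, whose protein has an RNase III-like fold, followed with a signal of 73.7 and rank 3741, and mRpL48 with 71.7 and rank 3875. mRpS11 had a signal of 68.3 and ranked 4171, and mRpL1 had 67.3 and ranked 4252. All 5 have divergent promoters. At mRpL44 the replicates were far apart, with ranks of 9931, 4872 and 2190 in replicates 1, 2 and 3.

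No pooled promoter peak was found at 13 genes, of which 6 have a divergent promoter and 2 had no peak in any replicate list either. A pooled promoter peak was present at 82.2% of the 73 genes and at 54.2% of all protein-coding genes. One of the 13, mRpL4, the counterpart of bacterial L4, stood apart. It had a peak in the top lists of all 3 replicates, at rank 2049 in replicate 1, 607 in replicate 2 and 1727 in replicate 3. The summits were 126, 116 and 132 bp upstream of the TSS, close to each other. No summit of the pooled list lay within 500 bp, and 1 lay within 1000 bp. Of the 1685 protein-coding genes in all 3 top lists, 2 (0.119%) had no pooled promoter peak, mRpL4 and fal, the second of which also had none within 1000 bp. mRpL4 was singled out after its values had been seen. The other 8 genes in a top list but without an IDR promoter peak were mRpS16, in 2 replicates, and mRpL1, mRpL17, mRpL32, mRpL44, mRpL48, mRpS17 and mRpS22, in 1 replicate each.

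The other 29 divergent genes, without an IDR peak, have the following partners. At most 100 bp from their partner are mRpL15 (CtIP, which acts in DNA repair), mRpL2 (FoxK, a forkhead factor), mRpL27 (CG15435), mRpL28 (the gene with the identifier FBgn0010607), mRpL46 (CG2021), mRpL48 (CG17660), mRpL52 (CG12107), mRpL55 (ATPsynD, a subunit of the ATP synthase), mRpS11 (Ns1, a nucleostemin-like GTPase), mRpS14 (Naa15-16, of the N-terminal acetyltransferase), mRpS16 (cg, a zinc finger factor), mRpS18A (CG31460), mRpS18C (CG15535) and mRpS28 (CG5323). Farther apart, up to 300 bp, are mRpL32 (qless, of coenzyme Q synthesis), mRpL39 (Prosbeta2, a proteasome subunit), mRpL43 (CG30183) and mRpL44 (Snr1, of the SWI/SNF complex). Farther still, up to 500 bp, are mRpL1 (CG9626), mRpL17 (Tudor-SN), mRpL22 (if, an integrin subunit), mRpL30 (HLH4C, a helix-loop-helix factor), mRpL38 (CG11674), mRpL50 (mei-P22, of meiotic recombination), mRpS17 (Nop60B, a pseudouridine synthase), mRpS18B (Kua), mRpS22 (CG5003), mRpS30 (Paf-AHalpha) and mRpS31 (hzg).

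Other nuclear genes of mitochondrial gene expression were set beside the ribosomal proteins, with a list of 36 symbols of which 31 were in the annotation. Beside the 26 of 73 ribosomal protein genes with an IDR promoter peak (35.6%), 4 of these 31 had one (12.9%). Over all protein-coding genes the share was 19.1%. Pooled promoter peaks lay at 22 of the 31 (71%, against 54.2% of all genes), and 16 have a divergent promoter (51.6%, against 27.4%). The list names tko and bonsai as mitochondrial ribosomal protein genes under other symbols, and further ones were not searched for. Neither had an IDR promoter peak, and tko had a pooled peak of rank 4563. The 10 genes listed as translation factors include clu, an RNA-binding protein needed for normal mitochondria. In this group 2 had an IDR promoter peak: clu, with a signal of 140 and rank 1278, and mEFTu2, an elongation factor, with a signal of 106 and rank 2087. Of the 11 genes of transcription and mitochondrial DNA upkeep 1 had one, mtSSB, the single-stranded DNA-binding protein, with a signal of 222 and rank 511. Of the 8 genes of RNA processing 1 had one, PNPase, a polynucleotide phosphorylase, whose peak had a signal of 974 and ranked 11, above mRpL41. A divergent promoter was found at 24 of the 26 ribosomal protein genes with an IDR peak and, of these 4 genes, at clu. Of all 2669 protein-coding genes with an IDR promoter peak, 1513 have a divergent promoter.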

How the data were processed

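Chromatin immunoprecipitation peaks of Hr51-GFP came from 3 biological replicates of 0 to 24 h embryos, and 5 deposited dm6 peak lists were used. The authors, per their deposited README text, derived every replicate list from 1 alignment and 1 other file, the pooled list from the 3 alignments, and the IDR list from those lists. Aligner and peak caller: not given in the sources used here. For each peak the authors deposited a signal, a −log10 q value and a summit. Signal ranked peaks within a list. The −log10 q was used only for its range, at least 3 in the IDR list and at least 0.0686 in the pooled list, so the relaxed lists include background. The 3496 IDR peaks were also the highest of the pooled list. Lists for dm3 were not used.

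Summits were placed against all TSSs of Ensembl release 115 (FlyBase 6.54), and motifs were searched on both strands of Release 6, with Python 3.11.15, numpy 2.4.6, pandas 2.3.3, scipy 1.17.1 and matplotlib 3.10.9. The counting was tested on simulated peaks. The genes and lists were chosen with earlier results of these data known. Every gene with an IDR promoter peak or a divergent promoter is named, 12 with all values, as are the 5 highest with a pooled peak alone. The divergent partner of 1 gene is not reported here. Protein-coding genes served as background, counting intervals were not given because genes are not independent, and no test was run. Alternatives changed the distance, the TSSs, the threshold, the replicates and the genes included.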

Additional observations from a re-analysis of the deposited data

How the results depend on the processing

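Of 63 alternative values, 42 stayed close to the reported one and 21 moved. The 26 genes with an IDR promoter peak became 16 with summits within 200 bp, 14 where the peak had to cover a TSS and 15 in the upper part of the IDR list by signal. Under these settings the share was 21.9%, 19.2% and 20.5% of the mitochondrial ribosomal protein genes, against 14.4%, 13.6% and 11% of all genes. For divergent promoters the 24 became 15, 13 and 14, and for one-strand promoters the 2 became 1 under each of these settings, 1 without mRpL41 and mRpS10, and 1 with paired TSSs up to 1000 bp apart, where mRpL41 counts as divergent and the divergent count is 25. Requiring each summit again in the top lists of the other 2 replicates, without each replicate in turn, gave 15 to 19 genes, 14 to 17 of them divergent and 1 to 2 one-strand. Without replicate 1 the count was 15, without replicate 2 it was 16 and without replicate 3 it was 19, or 20.5%, 21.9% and 26%, against 12.5%, 13.2% and 14.2% of all genes. The median place in the list, 46.8%, was 19.3% in the upper part of the list and 19.3% to 30.2% without a replicate, since both settings keep the higher peaks. Pooled counts, which ran from 48 to 66 genes, replicate means and the divergent share, from 69.9% to 79.5%, stayed within 1.5 times the reported value or moved by less than the spread between replicates. No paired analysis was possible because all samples are of 1 group. The unknown depth, the lack of a control library among the samples and the background in the relaxed lists limit what absence from a list means.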
